A study of Mus musculus with 18 samples.

Results

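The messenger RNAs made from the mitochondrial genome were measured by RNA sequencing in whole epididymal white adipose tissue, the abdominal fat pad beside the epididymis. They were found in the count table as the rows whose Ensembl identifier belongs to a protein-coding gene of chromosome M with a symbol starting with mt- in GENCODE M21. 8 of the 16452 rows met this rule, out of 13 protein-coding genes annotated on that chromosome. These are mt-Nd1, mt-Nd2, mt-Co1, mt-Nd3, mt-Nd4, mt-Nd5, mt-Nd6 and mt-Cytb. The remaining members of the 13, mt-Co2, mt-Atp8, mt-Atp6, mt-Co3 and mt-Nd4l, are not analysed here.

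The mice were male C57BL/6 animals labelled wild type and of a generation called Fm. By the labels they descend, through the sire, from zygotes made by in vitro fertilisation and injected with miR-let-7d (6 libraries), miR-let-7e (6 libraries) or a negative control (5 libraries). Chow was fed until week 6 and a diet labelled LFD until week 15 in every group. The age label reads 24 weeks, and the labels do not settle this difference. The title of the series concerns mitochondrial dysfunction in fathers and the metabolism of their offspring. The labels name neither the sires nor the litters, so p-values measure the spread between these libraries, and offspring of 1 sire cannot be told from independent animals. By the sample identifiers, 4 libraries are of an early series and 13 of a late one. Replicates 1 and 2 of let-7d and of let-7e are early, and no control is. A control replicate 5 is also described, and it is not analysed here. Total counts per library ran from 12717365 to 28972306.

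All 8 adipocyte markers were measured in every library, and their summed level was 19161.5 to 39801.2 CPM (counts per 1000000 counts of a library) in let-7d, 31763.4 to 43591.7 CPM in let-7e and 22556.7 to 42787.0 CPM in control libraries. 4 libraries carried transcripts of other tissue. Control 3 held 13358.2 CPM of smooth muscle markers and 17464.4 CPM of vas deferens and epididymis markers, against at most 602.1 and 27.64 CPM in the other libraries. Control 6 held 1239.7 CPM of spermatid markers, where no other library exceeded 61.94 CPM. Epithelial markers summed to 609.3 CPM in let-7d 1, 260.3 CPM in let-7d 5 and 373.1 CPM in control 3, and to at most 45.68 CPM elsewhere.

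Mitochondrial DNA is transcribed from both strands into long precursor RNAs. These precursors are cut, largely at the transfer RNAs that lie between the genes, and the messenger RNAs are then polyadenylated and translated inside the organelle. Every protein made there is a subunit of a respiratory chain complex or of ATP synthase. The remaining subunits are encoded in the nucleus, and let-7 is a family of microRNAs that act in the cytoplasm on messenger RNAs carrying matches to their seed. In fat cells, mitochondria oxidise fatty acids, and brown and beige adipocytes hold more of them than white adipocytes.

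Of the genes measured, mt-Nd1, mt-Nd2, mt-Nd3, mt-Nd4, mt-Nd5 and mt-Nd6 encode subunits of complex I (NADH dehydrogenase), the entry point of electrons from NADH. mt-Cytb encodes cytochrome b of complex III, and mt-Co1 encodes the catalytic subunit of complex IV, cytochrome c oxidase. On GRCm38 they lie at chrM:2751-3707 (mt-Nd1), chrM:3914-4951 (mt-Nd2), chrM:5328-6872 (mt-Co1), chrM:9459-9806 (mt-Nd3), chrM:10167-11544 (mt-Nd4), chrM:11742-13565 (mt-Nd5), chrM:13552-14070 (mt-Nd6) and chrM:14145-15288 (mt-Cytb). mt-Nd6 alone is on the minus strand, and its end overlaps that of mt-Nd5 by 14 bases. GENCODE annotates each as a single coding exon with no intron. The first 24 bases of each coding sequence, from GENCODE M21, are shown because mitochondria use start codons that nuclear genes do not. Capitals mark the start codon.
mt-Nd1: GTGttctttattaatatcctaaca
mt-Nd2: ATAaatcctatcacccttgccatc
mt-Co1: ATGttcattaatcgttgattattc
mt-Nd3: ATTaacctgtacactgttatcttc
mt-Nd4: ATGctaaaaattattcttccctca
mt-Nd5: ATCaatattttcacaacctcaatc
mt-Nd6: ATGaataattatatttttgtttta
mt-Cytb: ATGacaaacatacgaaaaacacac
mt-Co1, mt-Nd4, mt-Nd6 and mt-Cytb open with ATG, and each of the others with a different codon. mt-Nd4 and mt-Cytb are 1378 and 1144 bases long, which leaves 1 base over after 459 and 381 codons; in such genes the stop codon is completed by the poly(A) tail.

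The microRNAs named in the treatment are shown with their shared seed, bases 2 to 8 from the 5′ end, in capitals. The labels do not name the arm that was injected, and the 5p forms are printed from RefSeq.
mmu-let-7d-5p: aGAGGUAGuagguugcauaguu
mmu-let-7e-5p: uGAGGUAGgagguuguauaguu
The reverse complement of that seed, CTACCTC, was searched on the transcribed strand of the messenger RNAs. It was found in 0 of the 8 mitochondrial messenger RNAs. Among protein-coding transcripts of the same length range, 348 to 1824 bases, 559 of 6527 held it (8.56%, the longest transcript per gene).

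Copies of mitochondrial DNA in the nuclear genome bear on what a read count of these genes can show, since a read that matches both places has no unique origin. A stretch of chromosome 1 holds pseudogenes that are nearly identical to mitochondrial genes. Over 345 of the 348 bases of mt-Nd3, the pseudogene Gm28438 (chr1:24612775-24613119) differs by a single base, T3C, with positions counted from 1 at the 5′ end of mt-Nd3. The first 876 bases of mt-Nd4 are identical to Gm28439 (chr1:24611535-24612410), which is 63.6% of that gene. The last 483 bases of mt-Co1, or 31.3%, match Gm29216 (chr1:24615706-24616197) with the single difference A1066T. The windows around both differences are shown because 1 base is all that separates the paired stretches. Capitals mark the base that differs.
mt-Nd3: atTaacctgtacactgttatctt
Gm28438: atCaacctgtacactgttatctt
mt-Co1: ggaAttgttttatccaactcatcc
Gm29216: ggaTttgttttatccaactcatcc
The closest copies of mt-Nd2, mt-Nd5, mt-Nd6 and mt-Cytb were more distant, at 96.67%, 95.18%, 93.64% and 92.91% identity over the aligned stretch, and none was found for mt-Nd1. Of the pseudogenes paired with a measured messenger RNA, the table holds Gm29216 with 2 to 24 counts per library and Gm13340 (97.61% identical to mt-Co1) with 36 to 87 counts. Of the genes not analysed here, mt-Co2, mt-Atp6, mt-Co3 and mt-Nd4l each have a copy on the same stretch that is identical over all but their last 1 to 3 bases.

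Together the 8 messenger RNAs took up a few percent of each library. Their share of all counts was 3.14%, 3.69%, 3.32%, 3.68%, 3.79% and 3.24% in let-7d 1 to 6. In let-7e 1 to 6 it was 3.99%, 3.70%, 2.94%, 3.23%, 3.78% and 4.36%. In control 1, 2, 3, 4 and 6 it was 5.40%, 3.08%, 4.31%, 4.41% and 2.69%. The controls thus held both the highest and the lowest share of all 17 libraries, and they spanned the whole range of both let-7 groups. The means were 3.48% ± 0.275 in let-7d (SD, n = 6), 3.67% ± 0.514 in let-7e (SD, n = 6) and 3.98% ± 1.09 in controls (SD, n = 5). Among late libraries, let-7d averaged 3.51% ± 0.269 (SD, n = 4) and let-7e 3.58% ± 0.628 (SD, n = 4). In a whole tissue, fewer cells rich in mitochondria and less mitochondrial RNA per cell cannot be told apart.

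**Figure D1:**
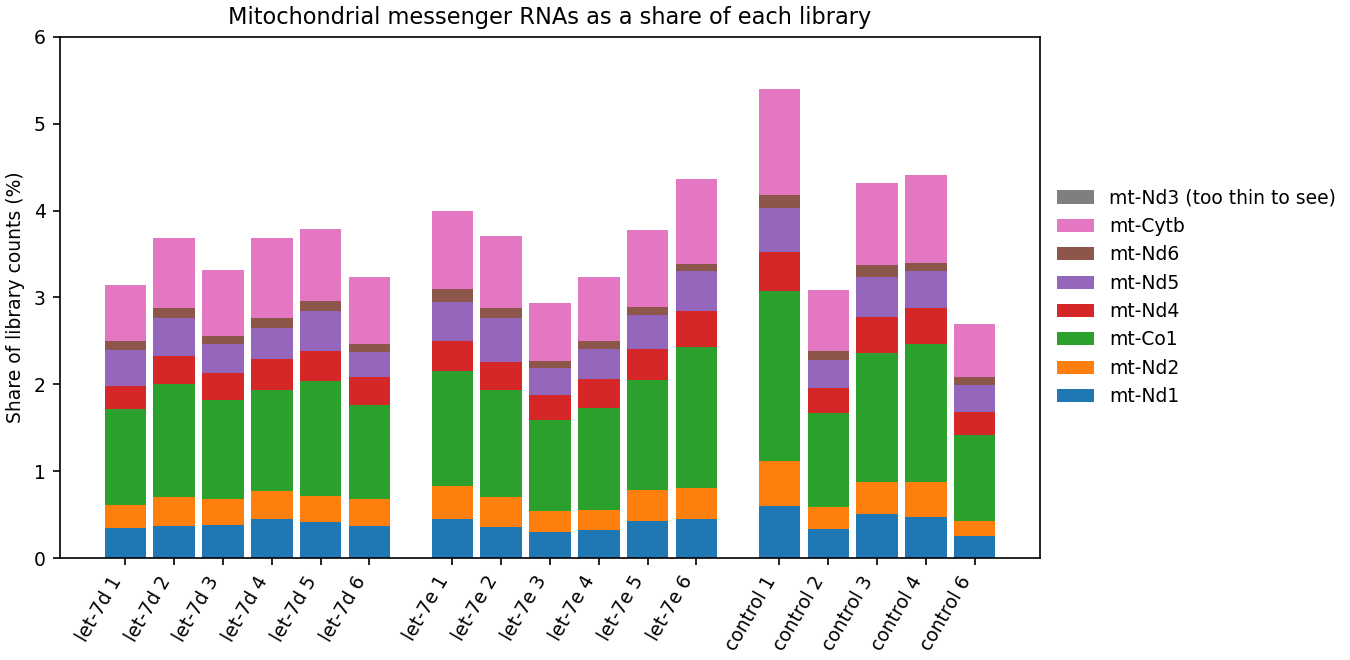
Stacked bars give the percent of all counts in each of 17 libraries taken by the 8 mitochondrial messenger RNAs, let-7d at the left, then let-7e, then control. The total is between 2.69% and 5.40%, with both extremes in control libraries, and mt-Co1 and mt-Cytb are the largest pieces of every bar.

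mt-Co1 ranked 4 among the 16452 genes by mean CPM. Its level was 9333.3 to 12736.5 CPM in let-7d libraries (median 11681.1, n = 6) and 10245.3 to 17890.4 CPM in let-7e libraries (median 12435.4, n = 6). In control 1, 2, 3, 4 and 6 it was 23181.0, 10679.5, 14148.3, 17594.7 and 9564.4 CPM. Control 1 stood above every other library and control 6 below all but let-7d 1. Both let-7 groups thus lay within the range of the controls but for let-7d 1.

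mt-Cytb ranked 8 of all genes. Its level was 5494.8 to 9650.7 CPM in let-7d (median 7782.7) and 6498.8 to 10786.6 CPM in let-7e (median 8499.8). The control libraries held 14362.8, 6970.6, 8959.2, 11214.2 and 5748.7 CPM. The order of the control libraries was the same as for mt-Co1, with controls 1 and 4 high and controls 2 and 6 low.

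The complex I messenger RNAs followed. mt-Nd1 averaged 3761.0 ± 574.1 CPM in let-7d, 3905.5 ± 773.9 CPM in let-7e and 4561.1 ± 1794.8 CPM in controls (SD, n = 6, 6 and 5). mt-Nd2 averaged 2932.1 ± 393.7 CPM in let-7d, 3212.6 ± 696.3 CPM in let-7e and 3654.9 ± 1722.6 CPM in controls, with the lowest single value, 1634.4 CPM, in control 6. mt-Nd4 averaged 3112.5 ± 506.9 CPM in let-7d, 3492.8 ± 550.8 CPM in let-7e and 3841.3 ± 1111.3 CPM in controls. For these genes the SD of the controls was the largest of the 3 groups. mt-Nd5 averaged 3648.7 ± 558.4 CPM in let-7d, 4147.0 ± 831.4 CPM in let-7e and 4286.5 ± 1246.5 CPM in controls.

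mt-Nd6, the product of the opposite strand, ranked 81 by mean CPM. It had 837.9, 1124.5, 804.5, 1298.9, 1114.3 and 840.1 CPM in let-7d 1 to 6 and 1460.6, 1185.0, 877.1, 893.8, 1010.5 and 879.1 CPM in let-7e 1 to 6. The controls held 1816.7, 986.6, 1233.8, 1014.6 and 910.1 CPM. Control 1 was again the highest, whereas let-7e 6 and control 4, which were high for mt-Co1 and mt-Cytb, were near the middle or the bottom for mt-Nd6. The files do not state whether reads were counted by strand. Reads of the opposite strand may thus be part of the mt-Nd6 count over its whole length. Reads of the 14 bases shared with mt-Nd5 cannot be assigned.

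mt-Nd3 had few counts, in CPM and also per kilobase of length, and ranked 10854 of 16452. Its level was 5.45, 7.13, 4.53, 5.05, 6.05 and 3.48 CPM in let-7d 1 to 6. In let-7e 1 to 6 it was 7.85, 8.17, 4.74, 5.73, 6.05 and 0 CPM. The control libraries held 12.5, 5.15, 6.67, 7.83 and 4.99 CPM. Nearly the whole of this gene, 99.1%, has the near-identical copy shown above, and how much of its low count comes from reads left out because they match both places was not tested.

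The 0 in let-7e 6 stood alone. mt-Nd3 had 45 to 233 counts in the other 16 libraries, and let-7e 6 held 693721 counts of the 8 messenger RNAs together. At the shares of mt-Nd3 seen in the other libraries, that sum would correspond to between 75 and 155 counts. A count of 0 allows a level of up to 0.207 CPM in let-7e 6 (3 counts, counting error only). Of 11088 genes with at least 45 counts in every other library, mt-Nd3 was the only gene at 0 in let-7e 6, and in each other library the corresponding number of genes at 0 was 0.

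**Figure D2:**
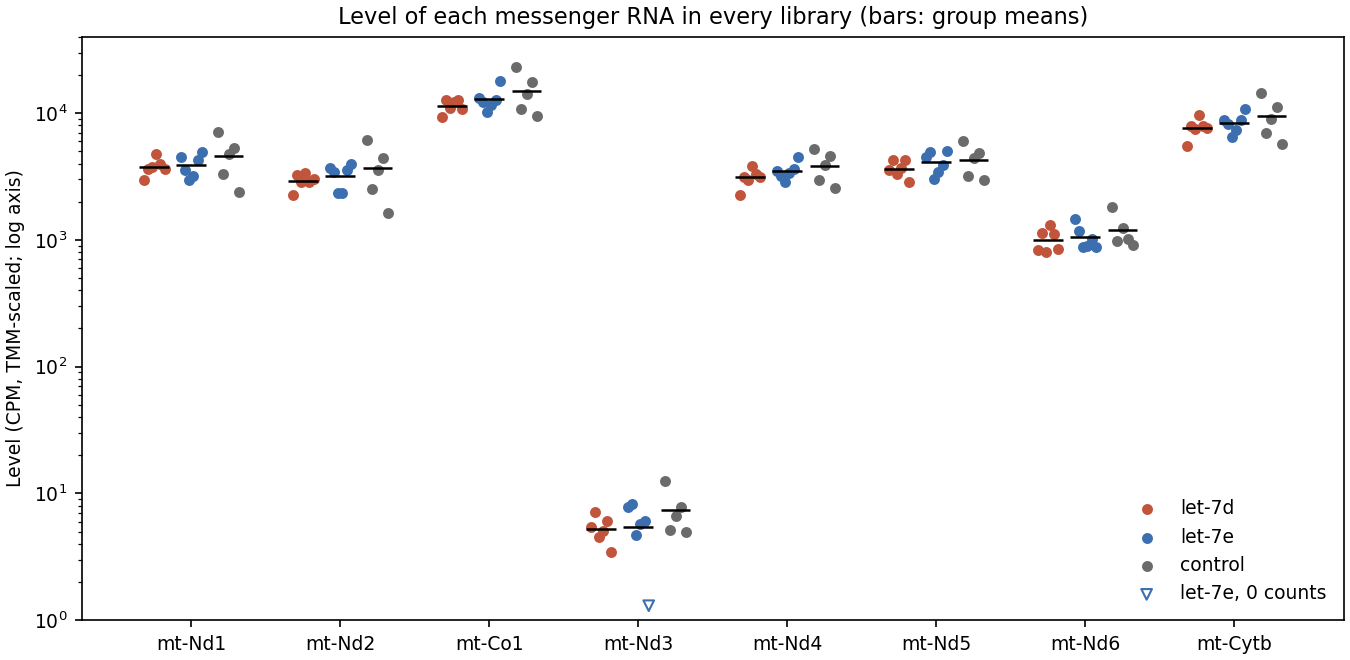
The level of each messenger RNA in CPM on a log axis, with 1 point per library, bars at the group means, and let-7d, let-7e and control from left to right. The groups overlap for all 8, mt-Nd3 lies far below the rest, and its 0 in let-7e 6 is drawn as an open triangle near the bottom edge.

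Levels of different genes were compared per kilobase of annotated length. On that scale mt-Co1 led with 8439.3 ± 2293.1 CPM per kilobase, ahead of mt-Cytb with 7396.0 ± 1902.0 CPM per kilobase (SD, n = 17), and it was above mt-Cytb in 16 of 17 libraries. mt-Nd1 followed at 4229.2, mt-Nd2 at 3124.9, mt-Nd4 at 2511.7, mt-Nd5 at 2199.6 and mt-Nd6 at 2072.8 CPM per kilobase. mt-Cytb was above mt-Nd1, and mt-Nd1 above mt-Nd2, in all 17 libraries. The order below was less sharp, with mt-Nd2 above mt-Nd4 in 15 libraries, mt-Nd4 above mt-Nd5 in 14 and mt-Nd5 above mt-Nd6 in 10 of 17, so mt-Nd5 and mt-Nd6 did not differ beyond their spread. mt-Nd3 came last at 17.1 CPM per kilobase.

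Part of that order depends on how the stretches shared with the nucleus are treated. Counting the length outside them only, as if no read of a shared stretch had been counted, mt-Nd4 moved up to 6894.6 ± 1510.4 CPM per kilobase (SD, n = 17), and mt-Cytb was above it in 14 of 17 libraries. mt-Co1 then stood at 12277.5 CPM per kilobase. mt-Nd3 cannot be placed on this scale, since the only 3 bases left are those past the end of the annotated pseudogene. This second scale holds only under that assumption, which was not tested. Reads that cross the edge of a shared stretch, or cover a base that differs, may have been counted. The rule by which shared reads were counted is not given in the sources used here.

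Between let-7d and control libraries, all 8 messenger RNAs were lower on average in let-7d and none passed the test. The log2 fold changes, from edgeR's quasi-likelihood test with the identifier series as a term and Benjamini-Hochberg adjustment over 16452 genes, ran from -0.24 for mt-Nd4 to -0.73 for mt-Nd3, with a median of -0.32. The same comparison had a median of -0.04 over all genes, and 57.5% of all genes had a log2 fold change below 0. For mt-Co1 the log2 fold change was -0.37 (SE 0.225, adjusted p = 0.576), and 6 of 6 let-7d libraries lay below the control mean. For mt-Nd3 it was -0.73 (SE 0.616, adjusted p = 0.69). The count past the adjusted threshold of 0.05 was 0 of 8, against 0.0% of all genes, and 0 of 8 had an unadjusted p under 0.05, against 10.2% of all genes. DESeq2's Wald test called 0 of 8, against 0.0632% of the genes it tested, and limma-voom 0 of 8, against 0.0%. The smallest unadjusted p was 0.117. The groups overlapped for all 8, while 0.517% of all genes had groups that did not overlap.

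Between let-7e and control libraries, the 8 messenger RNAs were again lower on average and none passed the test. The log2 fold changes were -0.19 for mt-Nd1, -0.20 for mt-Nd2, -0.19 for mt-Co1, -0.74 for mt-Nd3, -0.07 for mt-Nd4, -0.13 for mt-Nd5, -0.28 for mt-Nd6 and -0.13 for mt-Cytb. Their median was -0.19, beside -0.04 over all genes, of which 58.1% had a log2 fold change below 0. Adjusted p-values from edgeR ran from 0.644 to 0.927, so 0 of 8 passed, against 0.0% of all genes. None had an unadjusted p under 0.05, against 10.5% of all genes. DESeq2 called 0 of 8, against 0.0947% of the genes it tested, and limma-voom 0 of 8. The groups overlapped for all 8, and 0.632% of all genes did not overlap. These comparisons use the same control libraries, so the low values against control are not independent of each other.

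1 control library decided much of both differences. Without control 1 the median log2 fold change of the 8 was -0.11 in let-7d against control and 0.03 in let-7e against control. For let-7e against control, mt-Nd1, mt-Nd2, mt-Co1, mt-Nd4, mt-Nd5 and mt-Cytb then had values above 0, between 0.02 for mt-Co1 and 0.08 for mt-Cytb. Without the 4 libraries that carried transcripts of other tissue (let-7d 1, let-7d 5, control 3 and control 6) the medians were -0.46 in let-7d and -0.39 in let-7e, and 0 of 8 passed in either. The controls left in that fit are 1, 2 and 4. It thus keeps control 1, with the highest mitochondrial share (5.40%), and drops control 6, with the lowest (2.69%).

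Between the let-7 groups, the group means of all 8 messenger RNAs were higher in let-7e than in let-7d. A fitted log2 fold change above 0 was seen for 7 of 8, and none passed the test. The log2 fold changes ran from -0.02 for mt-Nd3 to 0.18 for mt-Co1 and mt-Nd5, with a median of 0.13, beside -0.01 over all genes. Here 46.9% of all genes had a log2 fold change above 0. Without the 4 libraries that carried transcripts of other tissue the median of the 8 was 0.04. Standard errors of 0.172 to 0.563 leave differences of that size, in either direction, within the error. Adjusted p-values from edgeR were 0.913 to 0.998, and 0 of 8 passed, against 0.0% of all genes. None had an unadjusted p under 0.05, against 6.67% of all genes. DESeq2 called 0 of 8, against 0.115% of the genes it tested, and limma-voom 0 of 8. The groups overlapped for all 8, against 0.237% of all genes that did not.

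**Figure D3:**
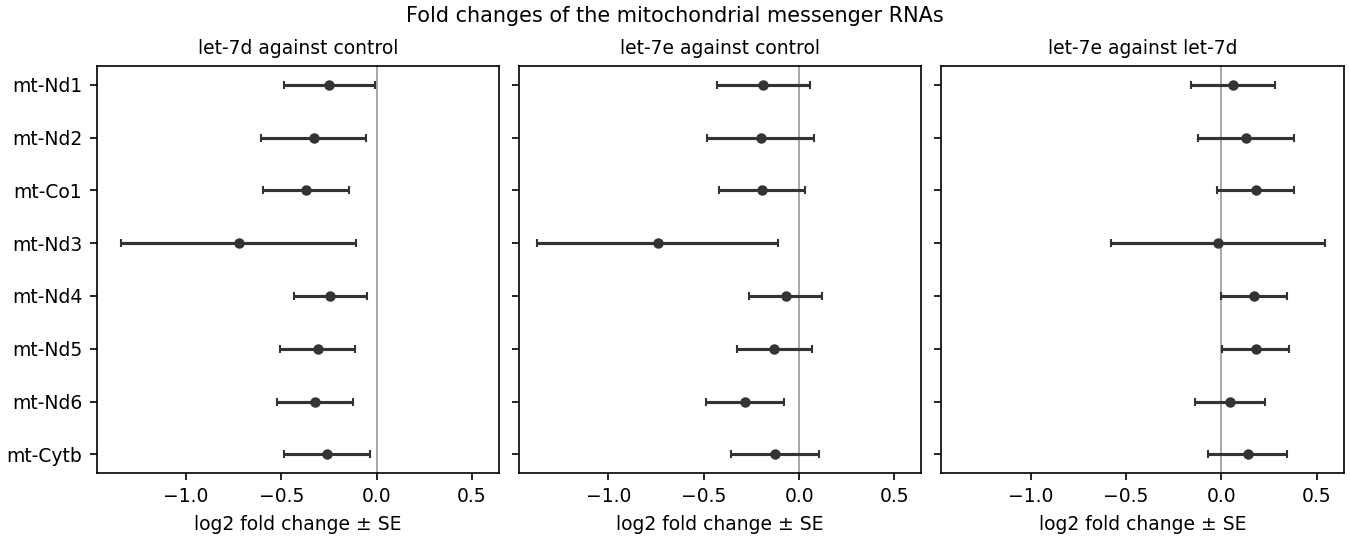
Points give the log2 fold change of each messenger RNA, with 1 SE on either side, in a panel for each of the 3 comparisons (let-7d and let-7e, each against control, and let-7e against let-7d), and a line marks 0. All 8 lie below 0 in both comparisons with control, with medians of -0.32 and -0.19, and mt-Nd3 has the widest error.

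The messenger RNAs varied together across libraries. Spearman's rho over the 17 libraries was 0.961 between mt-Nd2 and mt-Cytb, 0.956 between mt-Nd1 and mt-Cytb and 0.926 between mt-Co1 and mt-Nd4. It was lower for mt-Nd6, at 0.564 with mt-Nd1 and 0.64 with mt-Nd5, and lowest between mt-Nd1 and mt-Nd3, at 0.348. These values share library, depth and scaling, and are given as a description.

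As parts of their own summed counts, a quantity that sets aside how much of a library is mitochondrial, the messenger RNAs had similar proportions in most libraries. mt-Co1 made up 34.8% of the sum on average over the 17 libraries, mt-Cytb 22.6%, mt-Nd5 10.9%, mt-Nd1 10.8%, mt-Nd4 9.33%, mt-Nd2 8.59%, mt-Nd6 2.93% and mt-Nd3 0.0162%. mt-Co1 stayed between 31.7% in let-7d 4 and 37.3% in let-7e 6. mt-Cytb stayed between 20.6% in let-7d 1 and 24.9% in let-7d 4. mt-Nd6 varied more, from 3.67% in let-7e 1 to 1.83% in let-7e 6 and 2.07% in control 4. mt-Nd2 was lowest in control 6, at 6.34%, where the other libraries held 7.36% or more.

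The minus-strand messenger mt-Nd6, set against mt-Nd5, its neighbour on the other strand, ranged widely. Its counts came to 17.4% of those of mt-Nd5 in let-7e 6 and 35.4% in let-7d 4. In the controls the values were 30.2%, 30.9%, 28.0%, 21.0% and 30.5%. let-7d libraries ran from 23.6% to 35.4% and let-7e libraries from 17.4% to 32.3%, and the 3 groups overlapped. Counting by strand is not stated, so the counts of either gene may hold reads of both strands.

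Within the let-7 groups the proportions differed by identifier series. mt-Nd4 took 8.46% to 8.75% of the sum in the 4 early libraries and 9.21% to 10.4% in the 8 late let-7 ones. The late control 1, at 8.19%, lay below every early library. mt-Nd3 took 0.0197% to 0.0223% in the early libraries and 0% to 0.0179% in the late let-7 ones. The controls, all late, held 0.0160% to 0.0196% of mt-Nd3, which reaches almost to the early libraries. These 2 of the 8 messenger RNAs did not overlap between the early and late let-7 libraries. Of all genes set against the same sum, 3.56% did not overlap. The members are parts of that sum and the other genes are not, so these shares are not of like kind. The other 6, mt-Nd1, mt-Nd2, mt-Co1, mt-Nd5, mt-Nd6 and mt-Cytb, overlapped. Of these, mt-Nd5 took 11.3% to 13.6% in the early libraries and 8.95% to 11.9% in the late let-7 ones. Malat1, a nuclear noncoding RNA, had 1307.2 to 1482.5 CPM in early libraries and 271.0 to 417.0 CPM in late let-7 ones. Neat1, another, had 3485.4 to 4505.2 CPM in early libraries and 1863.9 to 4539.2 CPM in late let-7 ones, which overlap. The part of either in the series difference was not tested.

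**Figure D4:**
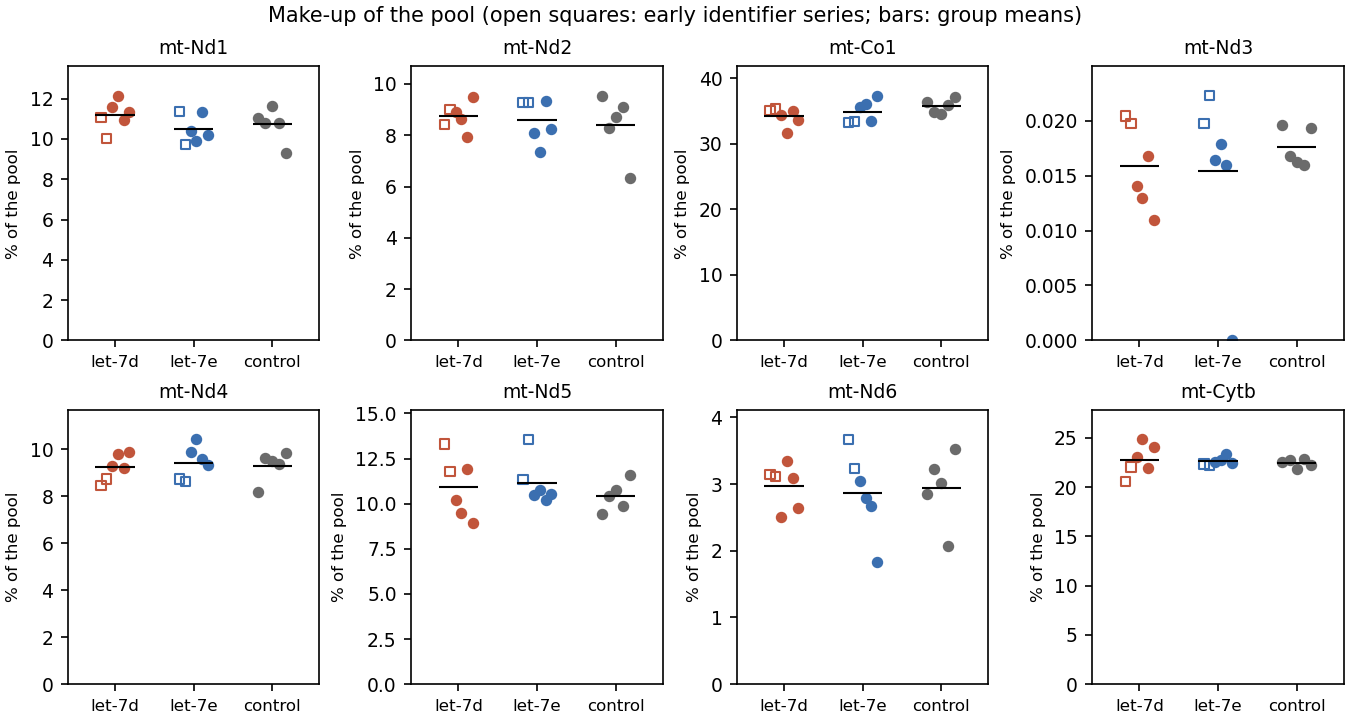
Each panel gives the percent of the summed mitochondrial messenger counts (the pool) taken by 1 gene, with 1 point per library, open squares for the early identifier series, filled circles for the late one, bars at the group means, and let-7d, let-7e and control from left to right. mt-Nd4 is lower in the 4 early libraries (8.46% to 8.75%) than in the late let-7 ones but lowest in the late control 1 (8.19%). mt-Nd3 sits at 0 in let-7e 6.

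The other chromosome M rows of the table are 5 genes of ribosomal and transfer RNA. mt-Rnr1, the small ribosomal RNA, averaged 237.8 ± 41.2 CPM in let-7d (SD, n = 6), 300.4 ± 43.1 CPM in let-7e (SD, n = 6) and 262.2 ± 79.8 CPM in controls (SD, n = 5). mt-Rnr2, the large ribosomal RNA, averaged 596.1 ± 84.2 CPM in let-7d, 684.0 ± 142.6 CPM in let-7e and 593.8 ± 186.7 CPM in controls. Against control, mt-Rnr1 had a log2 fold change of -0.21 in let-7d and 0.13 in let-7e (edgeR adjusted p = 0.678 and 0.83). Without control 1 these values were 0.002 in let-7d and 0.35 in let-7e. In let-7e against control, where all 8 messenger RNAs had fitted log2 fold changes below 0, both ribosomal RNAs and mt-Tp, a proline transfer RNA, had values above 0. mt-Te, a glutamic acid transfer RNA, had 6 to 82 counts per library. Its log2 fold changes against control were -1.20 in let-7d and -1.24 in let-7e (edgeR adjusted p = 0.473 and 0.417). It had 4.70 CPM in control 1 and at most 1.40 CPM in every other library. Without control 1 the log2 fold changes of mt-Te were -0.37 in let-7d and -0.42 in let-7e. mt-Tl2, a leucine transfer RNA, had log2 fold changes of -0.87 in let-7d and -1.32 in let-7e against control (edgeR adjusted p = 0.684 and 0.545), and without control 1 they were 0.21 and -0.24. None of these rows passed the adjusted threshold.

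Nuclear genes for the same complexes were examined as lists of 36 (complex I), 9 (complex III), 12 (complex IV) and 15 (complex V, ATP synthase) genes, all measured. Of these 72 genes, 65 had a fitted log2 fold change below 0 in let-7d against control, where 57.5% of all genes did, and 66 in let-7e against control, where 58.1% did. 0 passed in either, against 0.0% of all genes. Their median log2 fold changes were -0.11 and -0.10, beside -0.04 over all genes. 1 library decided these directions too. Without control 1, 26 of 72 were below 0 in let-7d against control, where 54.0% of all genes were, and 25 in let-7e against control, where 53.6% were, with medians of 0.02 and 0.03. Without the 4 libraries that carried transcripts of other tissue, 70 and 72 of 72 were below 0, where 48.5% and 46.6% of all genes were, with medians of -0.17 and -0.24. That fit keeps control 1, with only controls 2 and 4 beside it. By complex, the medians in let-7d against control were -0.12 (complex I), -0.11 (III), -0.13 (IV) and -0.07 (V). In let-7e against let-7d, 34 of 72 were above 0, where 46.9% of all genes were, with a median of -0.002. Without those 4 libraries, 61 of 72 were below 0, where 50.3% of all genes were, with a median of -0.06. All 8 mitochondrial messenger RNAs were above 0 in that fit, with a median of 0.04. Genes with the smallest p in these lists included Ndufa5 and Ndufa6 of complex I, Uqcr10 of complex III, Cox6c of complex IV and Atp5g1 of ATP synthase. Atp5g1, which encodes a form of subunit c, averaged 25.3 ± 2.07 CPM in let-7e (SD, n = 6) and 36.6 ± 13.9 CPM in controls (SD, n = 5), with an edgeR log2 fold change of -0.53 (SE 0.187, adjusted p = 0.367). Its control mean rests on control 3, at 60.6 CPM, where the other controls held 27.8 to 36.7 CPM, and without the 4 libraries the log2 fold change was -0.26.

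Summed over the 72 genes, the nuclear subunits came to 12532.6 ± 2183.8 CPM in let-7d (SD, n = 6), 12756.1 ± 1313.4 CPM in let-7e (SD, n = 6) and 14017.4 ± 2895.1 CPM in controls (SD, n = 5). Control 1 was the highest library for both the mitochondrial sum, 63723.5 CPM, and the nuclear sum, 18594.7 CPM. The ratio of the mitochondrial to the nuclear sum was 2.70 ± 0.245 in let-7d, 2.91 ± 0.357 in let-7e and 2.93 ± 0.512 in controls (SD, n = 6, 6 and 5). It ran from 2.30 in control 6 to 3.43 in control 1, and the groups overlapped.

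**Figure D5:**
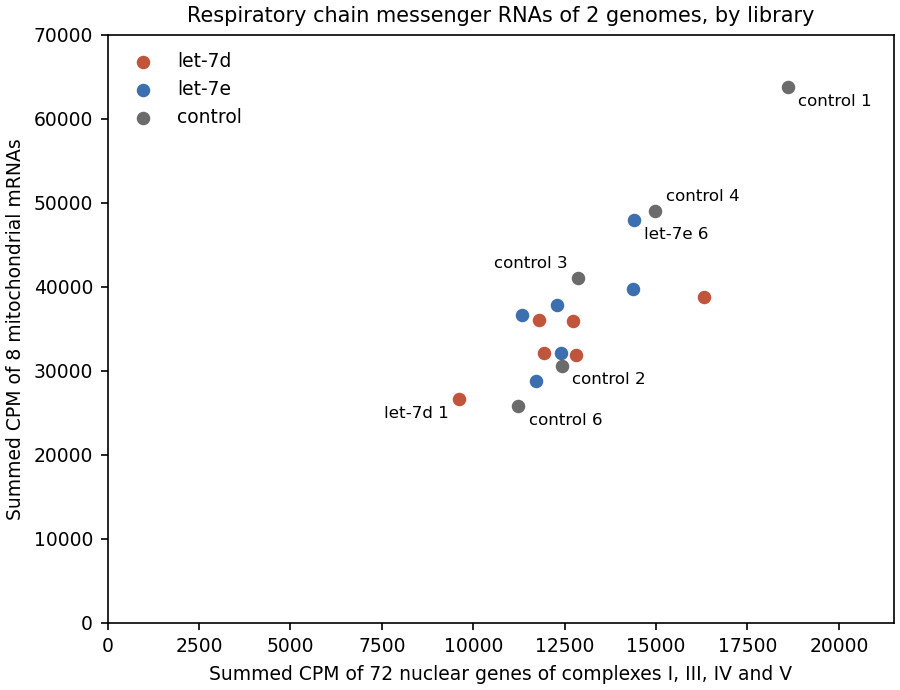
Each point is a library, with the summed CPM of 72 nuclear subunit genes on the x axis and the summed CPM of the 8 mitochondrial messenger RNAs on the y axis, coloured by group (let-7d, let-7e, control). Control 1 stands apart at 18594.7 and 63723.5 CPM, and the other libraries of the 3 groups overlap.

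Genes that make, process and remove mitochondrial RNA were examined in the same way. For transcription, 7 of 10 genes had a fitted log2 fold change below 0 in let-7d against control, where 57.5% of all genes did, and 8 of 10 in let-7e against control, where 58.1% did. Without control 1 it was 4 of 10 in each. Tfb1m, a methyltransferase of the mitochondrial small ribosomal RNA, averaged 4.81 ± 0.324 CPM in let-7d (SD, n = 6), 5.14 ± 0.601 CPM in let-7e (SD, n = 6) and 7.06 ± 2.09 CPM in controls (SD, n = 5). Its edgeR log2 fold change was -0.55 in let-7d (SE 0.187, adjusted p = 0.456) and -0.46 in let-7e (SE 0.186, adjusted p = 0.417). Controls 1 and 6 were high, at 8.59 and 9.86 CPM, whereas the other controls held 4.81 to 6.09 CPM. Without the 4 libraries, control 6 among them, its log2 fold changes were -0.41 in let-7d and -0.33 in let-7e. Tfam, which packages mitochondrial DNA and starts its transcription, had a log2 fold change of -0.15 in let-7d and -0.13 in let-7e against control (edgeR adjusted p = 0.564 and 0.6), and -0.04 and -0.02 without the 4 libraries.

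For processing and stability, 16 of 18 listed genes were measured, and 11 had a fitted log2 fold change below 0 in let-7d and 12 in let-7e against control, beside the same 57.5% and 58.1% of all genes. Without control 1 it was 9 and 8 of 16. Fastkd2, which binds mitochondrial RNA, averaged 10.4 ± 1.56 CPM in let-7e and 12.3 ± 2.21 CPM in controls (SD, n = 6 and 5; edgeR log2 fold change -0.29, adjusted p = 0.459). Mtpap, the mitochondrial poly(A) polymerase, averaged 29.1 ± 3.41 CPM in let-7d and 25.6 ± 1.04 CPM in controls (SD, n = 6 and 5; edgeR log2 fold change 0.15, adjusted p = 0.539). The degradation list held Supv3l1 and Pnpt1, the helicase and the nuclease of the mitochondrial degradosome, and Rexo2, which degrades short RNA. All 3 had fitted log2 fold changes below 0 in let-7d against control, beside the same 57.5% of all genes. In let-7e against control 2 of 3 did, beside 58.1%, and Supv3l1 had a value of 0.02. Without control 1 it was 1 of 3 in let-7d and 2 of 3 in let-7e.

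For replication of mitochondrial DNA, 6 of 11 genes had a fitted log2 fold change below 0 in let-7d and 5 of 11 in let-7e against control, beside 57.5% and 58.1% of all genes. Tk2, the mitochondrial thymidine kinase, had 32.7, 33.2, 35.1, 38.4, 36.1 and 31.6 CPM in let-7d 1 to 6 and 46.3, 42.6, 46.9, 40.3 and 44.7 CPM in control 1, 2, 3, 4 and 6. These groups did not overlap, which held for the 0.517% of all genes given above, and the log2 fold change was -0.29 (SE 0.0882, edgeR adjusted p = 0.456). In let-7e 1 to 6 Tk2 ran from 29.5 to 46.9 CPM, which overlaps the controls. Rrm2b, a subunit of ribonucleotide reductase, averaged 29.1 ± 4.61 CPM in let-7e and 23.9 ± 3.23 CPM in let-7d (SD, n = 6 each), with an edgeR log2 fold change of 0.29 (adjusted p = 0.7). No gene of these 4 lists passed the adjusted threshold in any of the 3 comparisons.

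The nuclear genes whose level followed the mitochondrial sum most closely were sought among 9571 genes averaging 10 CPM or more, by Spearman's rho over the 17 libraries. The 5 highest were Prdx3 (0.944), a mitochondrial peroxiredoxin, Zwint (0.944), known as a kinetochore protein, Uqcrc2 (0.919), a core subunit of complex III, Hadha (0.895), an enzyme of mitochondrial fatty acid oxidation, and Gid8 (0.89), part of a ubiquitin ligase. Prdx3 ran from 94.7 CPM in let-7d 1 to 162.5 CPM in let-7d 4, from 113.9 to 159.8 CPM in let-7e and from 108.9 CPM in control 6 to 224.1 CPM in control 1. Hadha reached 571.9 CPM in control 1 and 443.3 CPM in control 4. The median rho was 0.692 for the listed complex I genes, 0.728 for complex III, 0.664 for complex IV and 0.623 for ATP synthase, beside 0.066 for all genes ranked. For the 8 adipocyte markers it was 0.355, with 7 positive. The 1 brown and beige fat gene ranked, Cox8b, a complex IV subunit, had 0.855. Near the adipocyte value were the 3 ranked vas deferens and epididymis markers (0.333) and the 2 ranked skeletal muscle markers (0.302), all positive. For smooth muscle the median was -0.119, with 2 of 6 positive, and for red cells 0.002, with 2 of 3 positive. For the 5 macrophage markers ranked it was -0.56, the lowest median of the marker lists, and all 5 were negative. All ranked spermatid, epithelial, endothelial, mesothelial and lymphocyte markers were negative too, with list medians from -0.29 to -0.079.

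Levels of markers of other cells varied across the same libraries. The macrophage list, all 6 genes of which were measured, summed to 336.7 to 624.0 CPM in let-7d, 310.2 to 573.1 CPM in let-7e and 225.8 to 498.5 CPM in controls. In control 1, the library richest in mitochondrial messenger RNA, it was 286.8 CPM. In control 4 and let-7e 6, which ranked 2 and 3 for the mitochondrial sum, it was 393.1 and 476.3 CPM. Of the brown and beige fat list, 5 of 6 genes are in the table and Ucp1, the defining gene of brown fat, is not analysed here. That list summed to 14.5 to 27.96 CPM in let-7d, 12.9 to 33.6 CPM in let-7e and 10.4 to 117.4 CPM in controls, with the highest value in control 1. There Cidea, a lipid droplet protein, and Cox8b, a complex IV subunit of brown fat and muscle, stood at 38.8 and 70.6 CPM, where no other library exceeded 12.1 and 19.4 CPM. Dio2, which activates thyroid hormone, and Ppargc1a, a coactivator of mitochondrial genes, were not highest there, at 1.38 and 4.18 CPM, and peaked at 3.87 CPM in let-7d 6 and 12.5 CPM in let-7d 1. Elovl3, a fatty acid elongase, was also highest in control 1, at 2.41 CPM, with at most 1.08 CPM elsewhere, and was at 0 in let-7e 2 and control 6. The part of either cell type in the mitochondrial levels was not tested.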

How the data were processed

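Libraries were made from 1 ug of RNA, extracted with TRI reagent, and run on a NovaSeq, per the labels' protocols. Reads were aligned with STAR to GRCm38.p6, per the submitters' processing notes; the tool, annotation and strand setting that produced the counts are not given in the sources used here. The authors deposited whole-number counts for 16452 genes after a CPM filter whose threshold is not given in the sources used here. A second table was not used here.

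Identifiers were matched without version to GENCODE M21 (16432 matched, 20 did not). CPM are TMM-scaled; shares use plain totals. All 17 libraries were fitted with edgeR 4.0.16 in R 4.3.3 by group and identifier series; filterByExpr removed 0 genes, p-values are two-sided and adjusted over all genes, with a threshold of 0.05. The common biological coefficient of variation was 0.36. Total counts of 12717365 to 28972306 set the counting precision. Library shares and proportions of the mitochondrial sum are described with no test. In simulated data of 16452 genes, 2-fold changes were planted in 100 genes per comparison, all averaging 5 CPM or more. Of these, 75%, 77% and 85% were recovered in the comparison of let-7d with control, of let-7e with control and of let-7e with let-7d. In the same order, 5, 9 and 7 genes without a planted change were called. Genes were drawn independently, with no effect of the identifier series and no deviation shared by the genes of a library. Recovery of smaller changes, or of changes in genes that vary together, was not tested. The median log2 fold changes of the mitochondrial messenger RNAs in these comparisons, -0.32, -0.19 and 0.13, are smaller than the planted ones. The closest pair of libraries, let-7d 3 and 6, differed by more than sampling noise (chi-square over its degrees of freedom 14.6), so no library was counted as a repeat. Nuclear copies were found by aligning transcripts to annotated pseudogenes with BLAST+ 2.17.0, and microRNA sequences are from RefSeq.

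The members, gene lists, tests and alternatives were chosen with earlier results of these data known. Every mitochondrial messenger RNA in the table is named; of each companion list at most 3 genes with the smallest unadjusted p per comparison were eligible. Cidea, Cox8b, Elovl3, Dio2, Ppargc1a, Malat1 and Neat1 were named as members of marker lists after their values were seen. Alternatives were other scalings (DESeq2 1.42.0 size factors, no TMM, TMM without mitochondrial genes), a filter at a mean of 5 CPM, the DESeq2 Wald test, limma-voom (limma 3.58.1) with sample weights, a replicate block, a fit without the series, fits of the late libraries or of the compared groups alone, fits without the libraries that hold other tissue, a threshold of 0.1, and leaving out each library. Companion lists and genes without control 1, or without the 4 libraries that hold other tissue, were added after seeing the data.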

Additional observations from a re-analysis of the deposited data

Results flagged for a closer look

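Within groups, 51 sets of values were tested for a library far from the others, and 2 were flagged; chance flags about 1 group in 20. mt-Nd3 made up 0.0% of the summed mitochondrial messenger counts in let-7e 6, where the other let-7e libraries held 0.0160% to 0.0223%. mt-Nd5 made up 13.6% of that sum in let-7e 2, an early library, where the other let-7e libraries held 10.2% to 11.4%.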

How the results depend on the processing

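None of the 8 messenger RNAs passed the threshold of 0.05 under any alternative, in any of the 3 comparisons. In let-7d against control all 232 alternative values kept their sign, and the median log2 fold change of the 8 stayed between -0.46 and -0.11. In let-7e against control 9 of 232 changed sign, and the median stayed between -0.39 and 0.03; in let-7e against let-7d 15 of 232 did, with a median of 0.03 to 0.21. With each library left out in turn, the medians ran from -0.40 to -0.11, from -0.33 to 0.03 and from 0.05 to 0.21. The values of mt-Nd1, mt-Nd2, mt-Co1, mt-Nd4, mt-Nd5 and mt-Cytb in let-7e against control then ran from -0.341 to 0.027, -0.379 to 0.065, -0.335 to 0.023, -0.18 to 0.071, -0.242 to 0.03 and -0.25 to 0.082, each highest without control 1; mt-Nd4 was also above 0 without let-7e 3 (0.011) and without control 4 (0.014). mt-Nd3 ran from -0.901 to -0.392, highest without let-7e 6, and mt-Nd6 from -0.357 to -0.074, highest without control 1. In let-7d against control the ranges were -0.401 to -0.035 (mt-Nd1), -0.51 to -0.066 (mt-Nd2), -0.489 to -0.158 (mt-Co1), -0.856 to -0.45 (mt-Nd3), -0.352 to -0.103 (mt-Nd4), -0.405 to -0.149 (mt-Nd5), -0.443 to -0.118 (mt-Nd6) and -0.388 to -0.056 (mt-Cytb), each nearest 0 without control 1. In let-7e against let-7d, mt-Nd1 ran from -0.019 to 0.138, mt-Nd3 from -0.146 to 0.253 and mt-Nd6 from -0.049 to 0.145. The difference in library share ran from -0.825 to -0.147 percentage points for let-7d minus control, from -0.634 to 0.043 for let-7e minus control and from 0.052 to 0.336 for let-7e minus let-7d.

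Over all genes, DESeq2's Wald test called 10 genes in let-7d and 15 in let-7e, each against control, and 14 between let-7e and let-7d, none of them among the 8, where edgeR called 0. With the replicate number as a block and no series term, 1 gene was called in let-7d against control. With the block and the series, mt-Cytb in let-7e against control was 0.012. Same-numbered libraries of different groups had correlations of -0.33 to 0.50 in their deviations from group means, and not every pair was over 0.1, so the numbers were not used as pairs; shared sires or litters cannot be told from this. Among the alternatives that left out no single library, the other signs that changed were in let-7e against let-7d: mt-Nd1 at -0.012 and mt-Nd6 at -0.017 with no TMM, mt-Nd1 at -0.033 with voom, mt-Nd3 at 0.042 with no series term, mt-Nd1 at -0.051 and mt-Nd6 at -0.139 in late libraries, and mt-Nd3 at 0.014 without the 4 libraries with transcripts of other tissue. The causes were not tested. Taken per kilobase, the mean proportions were 28.1% (mt-Co1), 24.6% (mt-Cytb), 14.1% (mt-Nd1), 10.3% (mt-Nd2), 8.43% (mt-Nd4), 7.42% (mt-Nd5), 7.02% (mt-Nd6) and 0.0579% (mt-Nd3); they differ from the proportions of counts by construction. Counts of the mitochondrial messengers other than mt-Nd3 were 10862 or more per library, and those of mt-Nd3 were 233 or fewer, so counting error weighs most on mt-Nd3.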
